A study of Homo sapiens with 12 samples.

Results

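The 10 genes described here are smooth muscle differentiation markers, ACTA2, ACTG2, MYH11, DES, CNN1, TAGLN, CALD1, LMOD1, MYOCD, and SMTN, and they were taken by their symbols from a count table of 60649 genes. RNA was sequenced from 2 established human leiomyosarcoma lines, both labelled WT. The study describes SK-UT-1B as derived from a primary uterine tumor and SK-LMS-1 as derived from a vulvar metastasis. Cells were cultured for 72 h with the vehicle DMSO, with the gamma secretase inhibitor MK-0752, or with a combination of MK-0752, gemcitabine, and docetaxel, each treatment given at the IC30, the concentration that lowers viability by 30%. SK-LMS-1 had 4 DMSO libraries in sets numbered 2 and 4, 2 libraries with MK-0752 (set 2), and 2 with the combination (set 4). SK-UT-1B had 2 DMSO libraries (set 4) and 2 after the combination (set 3), so that in this line the set and the treatment cannot be told apart, and it had no library after MK-0752 alone among the samples used. Each line stands for 1 tumor, and a difference between them is a difference between these lines. The labels do not say that libraries of a group came from separate cultures, so the p-values measure the spread between libraries, which may be technical.

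Smooth muscle cells are recognised by a set of contractile and cytoskeletal proteins whose genes are switched on together. In this program serum response factor (SRF) binds a short DNA element called the CArG box in the promoters of contractile genes, and myocardin, the product of MYOCD, joins SRF as its coactivator. Leiomyosarcoma is a cancer with smooth muscle features, and pathologists use several of the same proteins, among them smooth muscle actin, desmin, and caldesmon, to recognise it. The pathway that MK-0752 blocks, Notch, signals through the DNA-binding protein RBPJ, and Notch signaling is known to act on smooth muscle genes in vessels.

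Promoters of 3 markers, ACTG2, ACTA2, and SMTN, are shown as examples that carry the element of the SRF program. CALD1 also had a mismatched element, and CNN1 and LMOD1 had none in their windows. All of these markers differed in level between the lines, and a link of the element to that difference was not tested. The windows are those of RefSeq on GRCh38.p14, from 250 bases before to 50 bases after a transcription start, printed 5′ to 3′ on the strand of the gene. They lie at chr2:73892758-73893057 on the plus strand for ACTG2, chr10:88952724-88953023 on the minus strand for ACTA2, and chr22:31084746-31085045 on the plus strand for SMTN. Capitals mark a CArG box, or in ACTA2 a CArG box with 1 mismatch among its inner A or T bases.
ACTG2: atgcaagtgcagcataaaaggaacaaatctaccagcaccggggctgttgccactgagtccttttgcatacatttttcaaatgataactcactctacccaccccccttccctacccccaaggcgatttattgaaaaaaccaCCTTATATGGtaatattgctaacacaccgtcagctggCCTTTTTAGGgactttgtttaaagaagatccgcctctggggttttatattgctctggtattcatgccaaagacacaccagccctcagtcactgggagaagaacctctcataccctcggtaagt
ACTA2: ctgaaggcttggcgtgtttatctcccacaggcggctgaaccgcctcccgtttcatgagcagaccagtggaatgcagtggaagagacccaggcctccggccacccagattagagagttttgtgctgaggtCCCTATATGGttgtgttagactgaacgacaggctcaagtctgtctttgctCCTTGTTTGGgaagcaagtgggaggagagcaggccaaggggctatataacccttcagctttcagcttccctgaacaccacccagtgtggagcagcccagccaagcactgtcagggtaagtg
SMTN: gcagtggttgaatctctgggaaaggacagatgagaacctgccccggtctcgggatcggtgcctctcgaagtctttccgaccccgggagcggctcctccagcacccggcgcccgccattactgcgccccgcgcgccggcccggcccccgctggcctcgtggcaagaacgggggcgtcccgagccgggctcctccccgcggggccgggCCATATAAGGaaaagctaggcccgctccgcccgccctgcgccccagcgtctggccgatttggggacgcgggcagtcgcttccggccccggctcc

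RefSeq windows were matched for 6 of the 10 markers, with 13 windows in all, of which 4 belong to CALD1, 4 to SMTN, 2 to ACTA2, and 1 each to ACTG2, CNN1, and LMOD1. MYH11, DES, TAGLN, and MYOCD had no entry among the windows used here. The CArG box was held by 2 of the 13 windows, those of ACTG2 and SMTN printed above, and by 1.29% of 35116 RefSeq windows. In ACTG2 it stood at positions -110 to -101 (CCTTATATGG) and -73 to -64 (CCTTTTTAGG) from the start, and in SMTN at -44 to -35 (CCATATAAGG). A CArG box with 1 mismatch was held by 6.94% of all windows and by 2 of the 13, that of ACTA2 at -121 to -112 (CCCTATATGG) and -71 to -62 (CCTTGTTTGG), and 1 of CALD1 at -26 to -17 (CCTAAAGAGG). The RBPJ motif TGGGAA, sought on both strands, was in 3 of the 13 windows, 1 of ACTA2 and 2 of SMTN, against 24.0% of all windows. In ACTA2 it stood at -64 to -59 and overlapped the second of the mismatched CArG boxes. The MCAT motif CATTCC, bound by TEAD factors, was in 5 of the 13 windows against 14.0% of all, the E-box CANNTG in 7 against 68.7%, and TATAAA in 2 against 11.5%. A match gives the letters of the window only.

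Total counts were between 25250057 and 40709885 per library. In each library, from 17.4% to 34.7% of the genes expected at 5 to 500 counts were listed at 0, and from this share 1 sequenced molecule was estimated to have given between 11.1 and 27.9 counts, so that a low count rests on few molecules. The reads carried no molecular identifiers in the counts used, and floors here cover counting error only. A count of 0 allows up to 3 counts, which is 0.0777 to 0.123 counts per 1e6 counts (CPM), depending on the library. Since 1 molecule gave more counts than this floor, a 0 can hide a larger true level. Each fold given below as at least a value is thus a bound for counting error only, and the fold in molecules may be much smaller. These were bulk samples, in which fewer cells with a transcript and less of the transcript per cell cannot be told apart. Levels are given as counts and as CPM scaled by the TMM method, and 9 of the 10 markers, with the exception of MYH11, passed the filter on low counts, as did 21114 genes. A difference was called where edgeR's quasi-likelihood test gave a Benjamini-Hochberg adjusted p under 0.05 over these genes and the log2 fold change (log2FC) was at least 1 in size.

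The defining markers of the mature lineage were checked first against the labelled cell type. MYH11 (ENSG00000133392.18, chr16:15703135-15857028, GENCODE v44 on hg38), the smooth muscle myosin heavy chain, had 5 and 3 counts in the SK-LMS-1 libraries after the combination, 2 counts in 1 SK-UT-1B DMSO library, and 0 in the other 9. MYOCD (ENSG00000141052.18, chr17:12665890-12768949), the myocardin gene, had 7 and 36 counts with MK-0752 and 12 and 0 with the combination in SK-LMS-1, and 0 in all 4 SK-LMS-1 DMSO libraries and all 4 SK-UT-1B libraries. By the estimate above its highest count, 36, stood for 1.89 molecules. DES (ENSG00000175084.13, chr2:219418377-219426735), desmin, the intermediate filament of muscle, had 0 counts in all 8 SK-LMS-1 libraries. MYH11 and MYOCD were thus at or near 0 in both lines and DES in SK-LMS-1, while the other 7 markers were detected in every SK-LMS-1 library. Exons of MYH11 overlap NDE1 on the other strand, which had 1111 to 3942 counts.

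The comparison of the lines after DMSO asked how they differ in the program without drug. SK-LMS-1 had higher levels of 7 markers, ACTA2, ACTG2, CNN1, TAGLN, CALD1, LMOD1, and SMTN, and less DES. These were 8 calls among 9 markers tested, where 31.1% of all tested genes were called, 17.0% as higher and 14.1% as lower in SK-LMS-1. These 8 markers also had no overlap between the libraries of the lines, as was the case for 51.8% of all tested genes. Over the 9, the median log2FC was 2.94, or 3.87 with the markers that were absent from 1 line at their bound and those absent from both left out, beside a median of 0 over all tested genes. The summed CPM of the 10 markers was 543 to 626 (median 594) in the 8 SK-LMS-1 libraries and 85.0 to 124 (median 109) in the 4 SK-UT-1B libraries. CALD1 and SMTN held most of these sums. Their means after DMSO were 352 and 164 CPM in SK-LMS-1 and 45.7 and 58.9 CPM in SK-UT-1B.

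**Figure D1:**
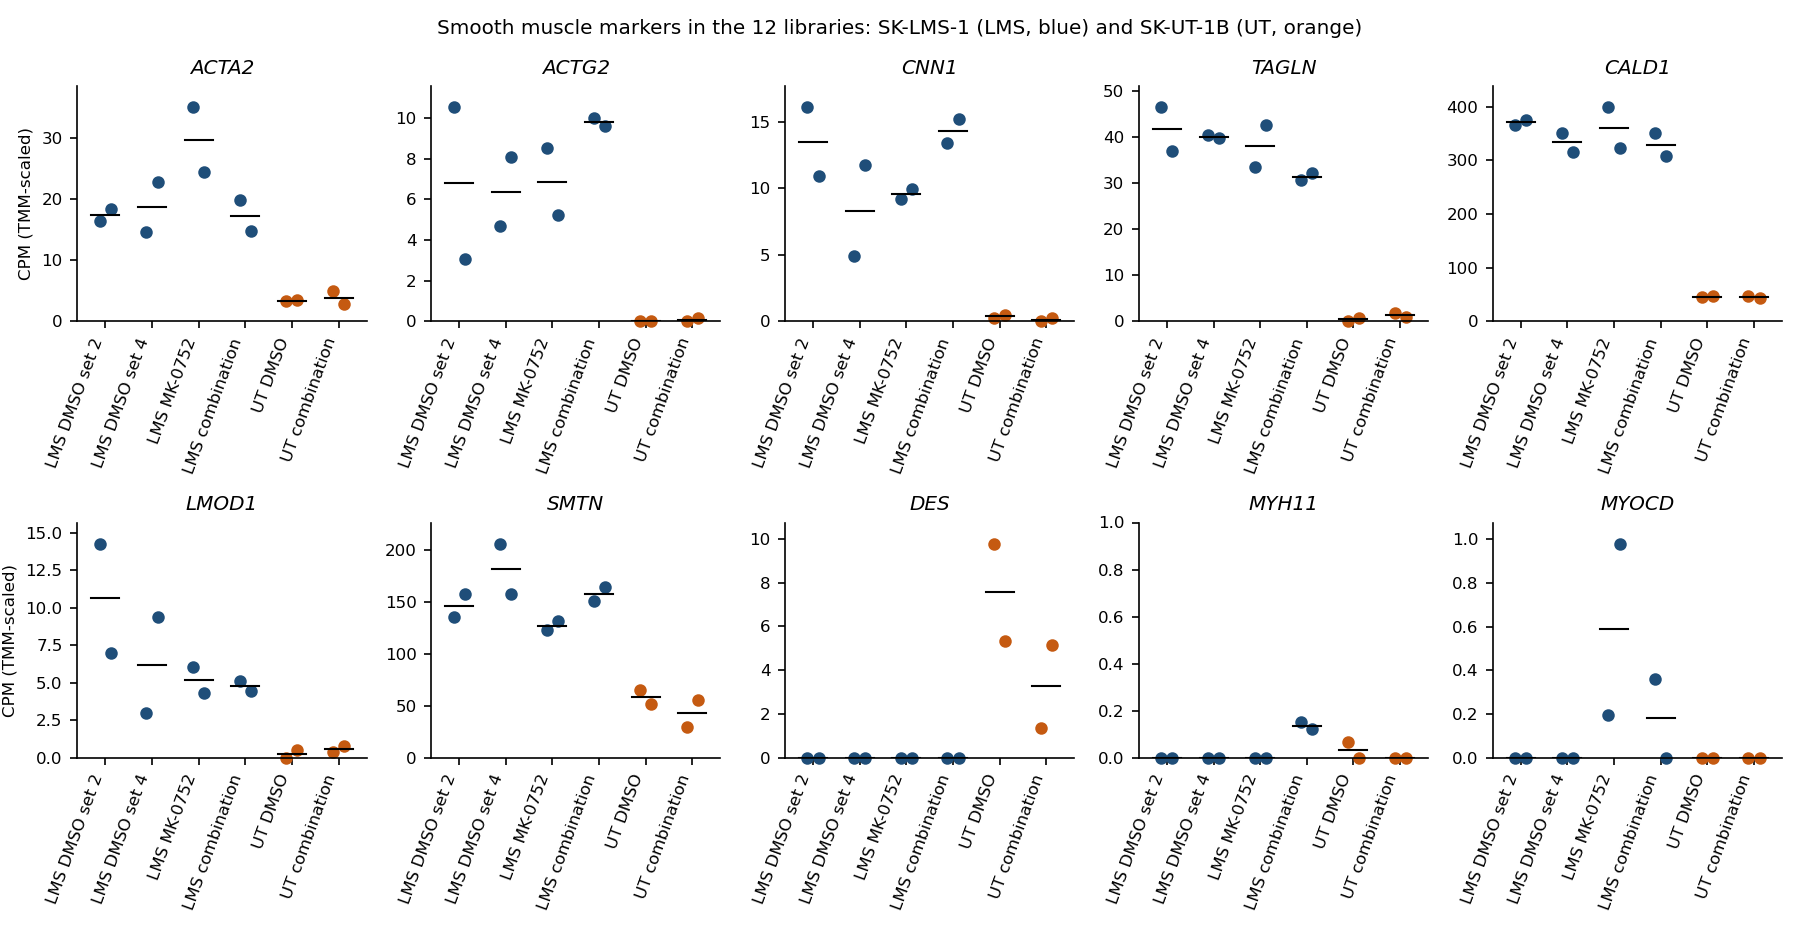
CPM (TMM-scaled, vertical axis from 0, its own scale in each panel) of the 10 markers in the 6 groups of 2 libraries, with points for libraries and bars for group means, SK-LMS-1 in blue and SK-UT-1B in orange. The points of 7 markers sit higher in each library of SK-LMS-1 than in any of SK-UT-1B, DES is at 0 in SK-LMS-1, and MYH11 and MYOCD stay below 1 CPM.

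Among the contractile filament genes, ACTA2 (ENSG00000107796.13, chr10:88935074-88991339), smooth muscle alpha actin, had 571, 507, 361, and 882 counts in the 4 SK-LMS-1 DMSO libraries and 94 and 129 in SK-UT-1B. After treatment it had 1250 and 902 counts with MK-0752, 660 and 360 with the combination in SK-LMS-1, and 183 and 78 with the combination in SK-UT-1B. Every SK-LMS-1 library was thus above every SK-UT-1B library. After DMSO the level was 18.1 ± 3.54 CPM (SD, n = 4) in SK-LMS-1 and 3.34 ± 0.118 CPM (SD, n = 2) in SK-UT-1B, a log2FC of 2.43 (SE 0.38, edgeR adjusted p = 2.54e-05). By the estimate above, the SK-UT-1B counts stood for 4.10 and 7.23 molecules of ACTA2, so that the SD there may be smaller than the sampling error. Its exons overlap FAS on the other strand, which had 153 to 1149 counts, and the strand setting of the counts was not given in the sources used here.

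ACTG2 (ENSG00000163017.14, chr2:73892314-73919865), the enteric gamma actin of smooth muscle, had 367, 84, 115, and 312 counts in the SK-LMS-1 DMSO libraries and none in the SK-UT-1B ones. Treated SK-LMS-1 libraries had 304 and 192 counts with MK-0752 and 332 and 234 with the combination, whereas 1 of the SK-UT-1B combination libraries had 4 counts and the other 0. With DMSO the SK-LMS-1 level was at least 71.7-fold higher, at 6.58 ± 3.36 CPM (SD, n = 4), against a floor of 3 counts per library in SK-UT-1B (edgeR adjusted p = 1.46e-05). By the estimate above, the SK-LMS-1 DMSO counts stood for 4.46 to 13.1 molecules, so a bound in molecules would be far lower. ACTG2 thus had at most 4 counts in any SK-UT-1B library. Its promoter, printed above, held 2 CArG boxes without a mismatch.

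The regulators of the thin filament followed. CALD1 (ENSG00000122786.20, chr7:134744252-134970729), caldesmon, was the most abundant marker in SK-LMS-1, with 12783, 10364, 8679, and 12184 counts in SK-LMS-1 after DMSO and 1292 and 1762 in SK-UT-1B. In treated SK-LMS-1 it had 14223 and 11906 counts with MK-0752 and 11718 and 7490 with the combination, and 1708 and 1205 after the combination in SK-UT-1B. At 352 ± 26.2 CPM (SD, n = 4) against 45.7 ± 1.42 CPM (SD, n = 2), its log2FC of 2.94 had the smallest error of the markers (SE 0.15, edgeR adjusted p = 4.76e-12). CALD1 is also made in nonmuscle cells as a shorter form, and the counts do not separate the forms.

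CNN1 (ENSG00000130176.8, chr19:11538767-11550323), calponin, an inhibitor of the myosin ATPase, had 562, 302, 121, and 454 counts in SK-LMS-1 after DMSO and 7 and 19 in SK-UT-1B. SK-LMS-1 had 328 and 367 counts with MK-0752 and 446 and 371 with the combination, and SK-UT-1B had 0 and 7 after the combination. The groups did not overlap, at 10.9 ± 4.61 CPM (SD, n = 4) and 0.373 ± 0.185 CPM (SD, n = 2) after DMSO, a log2FC of 4.80 (SE 0.79, edgeR adjusted p = 4.9e-05). With 1 library left out this log2FC ran from 4.35 to 5.43. The SK-UT-1B DMSO counts stood, by the estimate above, for 0.306 and 1.07 molecules, so that the size is not well set.

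TAGLN (ENSG00000149591.17, chr11:117199370-117207464), transgelin or SM22 alpha, an actin-bundling protein, had 1619, 1021, 995, and 1532 counts in SK-LMS-1 after DMSO, and 0 and 31 in SK-UT-1B. After MK-0752 it had 1191 and 1565 counts, after the combination 1017 and 785 in SK-LMS-1, and 63 and 25 in SK-UT-1B. The log2FC after DMSO was 6.52 (SE 0.84, edgeR adjusted p = 0.000173), from 40.9 ± 3.97 CPM (SD, n = 4) and 0.411 ± 0.581 CPM (SD, n = 2). Since 1 SK-UT-1B DMSO library held all 31 counts, the fitted log2FC was 13.34 without it, with TAGLN then at 0 in SK-UT-1B, so that the size is not well set and only the direction and the call are. TAGLN shares exonic bases with PCSK7 on the other strand, which had 783 to 1606 counts in every library.

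LMOD1 (ENSG00000163431.13, chr1:201896456-201946548), leiomodin, which nucleates actin filaments, had 498, 193, 73, and 362 counts in SK-LMS-1 after DMSO, 216 and 160 with MK-0752, and 171 and 109 with the combination. In SK-UT-1B it had 0 and 19 counts with DMSO and 15 and 22 with the combination. Of the 7 markers of SK-LMS-1 it varied most relative to its mean there, with an SD over the DMSO libraries of 4.73 CPM at a mean of 8.40 CPM. Against 0.252 ± 0.356 CPM (SD, n = 2) in SK-UT-1B the log2FC was 4.94 (SE 1.11, edgeR adjusted p = 0.00112), and it was 11.01 without the SK-UT-1B library that held the 19 counts.

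SMTN (ENSG00000183963.19, chr22:31064105-31104757), smoothelin, a cytoskeletal protein of contractile smooth muscle, had the smallest difference of the 8 called markers. It had 4732, 4350, 5078, and 6074 counts in SK-LMS-1 after DMSO and 1899 and 1964 in SK-UT-1B, 4385 and 4852 with MK-0752, 5039 and 4016 with the combination in SK-LMS-1, and 1093 and 1572 after the combination in SK-UT-1B. The level after DMSO was 164 ± 29.8 CPM (SD, n = 4) in SK-LMS-1 and 58.9 ± 9.65 CPM (SD, n = 2) in SK-UT-1B, with no overlap, a log2FC of 1.47 (SE 0.22, edgeR adjusted p = 2.42e-05).

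DES went the other way. SK-UT-1B had 282 and 201 counts with DMSO and 50 and 145 with the combination, and all SK-LMS-1 libraries had 0. With DMSO, desmin RNA of SK-LMS-1 was therefore at least 76.6-fold lower, against 7.55 ± 3.13 CPM (SD, n = 2) in SK-UT-1B (edgeR adjusted p = 8.42e-05). By the estimate above, the SK-UT-1B DMSO counts stood for 12.3 and 11.3 molecules, so a bound in molecules would be far lower. Desmin is shared by smooth, cardiac, and skeletal muscle.

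The same comparison after the combination gave the same 7 genes higher and DES lower in SK-LMS-1, among 9 tested, where 25.4% of all tested genes were called, 15.6% higher and 9.88% lower. Again the libraries of these 8 did not overlap, nor did those of 64.6% of all tested genes. The log2FC was 2.15 for ACTA2, 7.14 for ACTG2, 6.91 for CNN1, 4.57 for TAGLN, 2.88 for CALD1, 3.01 for LMOD1, and 1.89 for SMTN. The values for ACTG2 and CNN1 rest on 4 and 7 counts in 1 SK-UT-1B library, the other being at 0, and without that library (replicate 3) they were 11.32 and 11.87, so that only their direction and call are set. DES was at least 30.5-fold lower (edgeR adjusted p = 0.004), but its adjusted p with DESeq2 was 0.154, and without replicate 3 of the SK-UT-1B combination the bound was 12.8-fold. The call for LMOD1, at an edgeR adjusted p of 0.0319, was lost without replicate 1 of the SK-UT-1B combination, with adjusted p = 0.0701. No library is shared with the comparison after DMSO. The median log2FC of the 9 markers was 3.01, beside 0.02 over all tested genes.

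**Figure D2:**
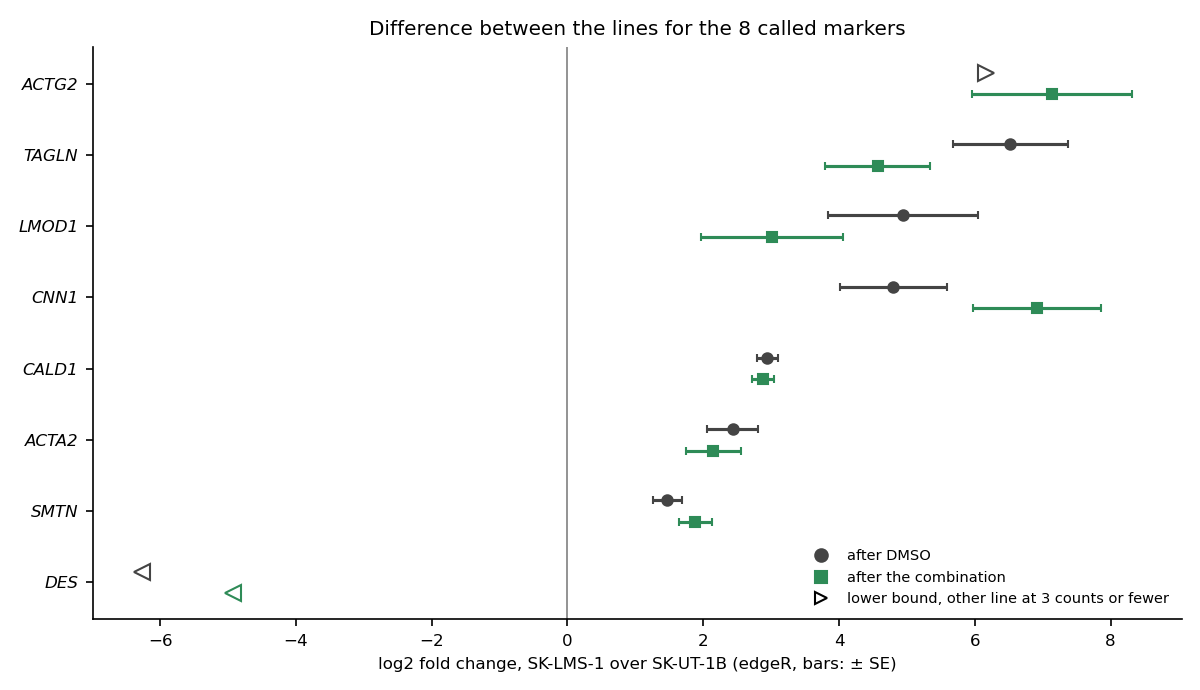
Log2FC of SK-LMS-1 over SK-UT-1B (horizontal axis) for the 8 called markers after DMSO (circles) and after the combination (squares), with bars for the SE from edgeR. Open triangles are lower bounds where the other line had at most 3 counts, for ACTG2 after DMSO and DES in both comparisons. The 7 smooth muscle genes lie right of 0 and DES left of it.

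Levels were then compared between genes per length, as RPKM, the CPM divided by length in kilobases, with the length of all annotated exons. In SK-LMS-1 after DMSO the order was CALD1 at 36.0 ± 2.68, SMTN at 16.1 ± 2.92, TAGLN at 6.24 ± 0.606, CNN1 at 3.85 ± 1.62, ACTA2 at 3.21 ± 0.629, LMOD1 at 2.14 ± 1.20, and ACTG2 at 1.73 ± 0.883 RPKM (SD, n = 4). The neighbours CNN1 and ACTA2, ACTA2 and LMOD1, and LMOD1 and ACTG2 overlapped within their SD. In SK-UT-1B the order was SMTN at 5.78 ± 0.946, CALD1 at 4.67 ± 0.145, DES at 3.03 ± 1.26, and ACTA2 at 0.593 ± 0.0210 RPKM (SD, n = 2), with CNN1, LMOD1, and TAGLN between 0.0628 and 0.132 RPKM. CALD1 led in SK-LMS-1 and SMTN in SK-UT-1B, where both exceeded the other markers.

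The order depends on the length taken, since annotated exons include transcripts that the cells may not use. With the length of the MANE Select transcript, an alternative chosen after seeing the data, ACTA2 moved up to stand next to SMTN in SK-LMS-1, at 13.4 ± 2.63 RPKM (SD, n = 4), above TAGLN at 10.8 ± 1.05, though these overlapped within their SD. CALD1 then reached 70.3 RPKM, a level at or above 95.5% of 19068 coding genes in SK-LMS-1, and 9.13 RPKM, at or above 69.8%, in SK-UT-1B. For scale, ACTB, the cytoplasmic beta actin of all cells, had 3416 RPKM in SK-LMS-1 and 2452 RPKM in SK-UT-1B by the same length.

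**Figure D3:**
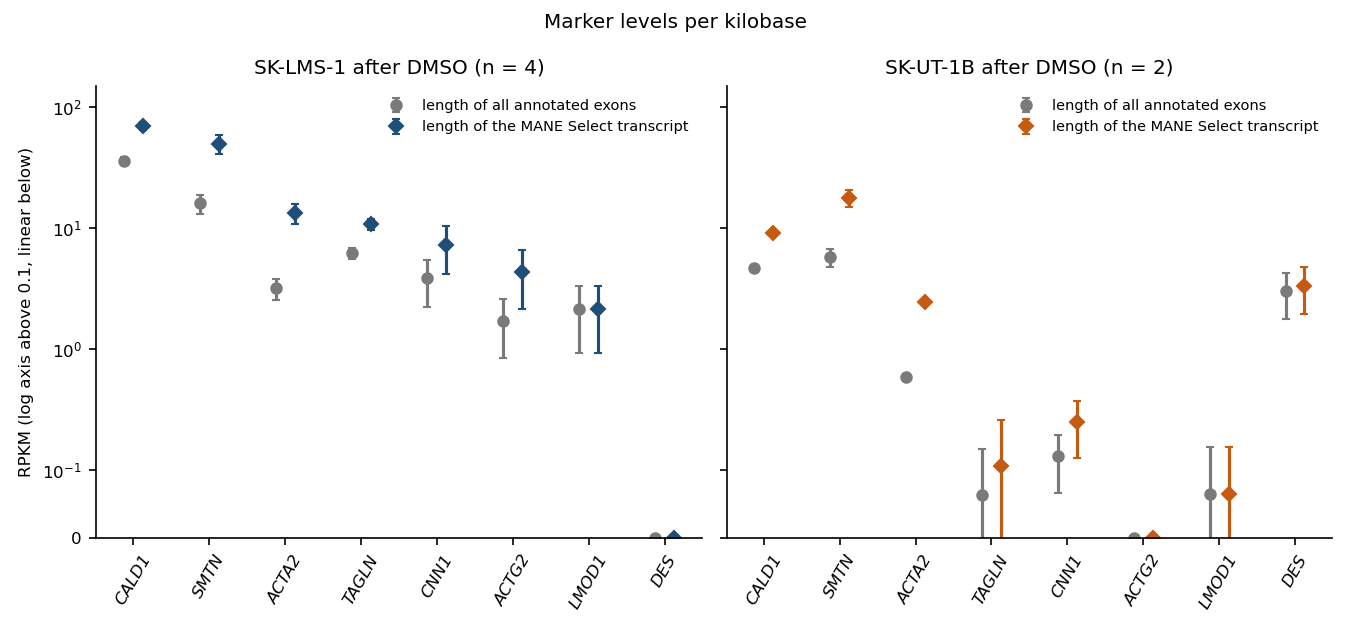
RPKM of 8 markers after DMSO in SK-LMS-1 (left, n = 4) and SK-UT-1B (right, n = 2), mean and SD over libraries, on an axis that is logarithmic above 0.1 and linear below. Grey circles use the length of all annotated exons and coloured diamonds that of the MANE Select transcript, which lifts ACTA2 from 3.21 to 13.4 RPKM in SK-LMS-1.

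The treatment comparisons asked whether drug exposure moved the markers within a line. In SK-LMS-1 after MK-0752, against DMSO of set 2, edgeR called 0 of the 9 markers tested, with 0.251% of all tested genes called. None had an unadjusted p under 0.05, as 6.41% of all tested genes had, and DESeq2 called 0. ACTA2 was at 35.1 and 24.5 CPM after MK-0752 and 16.4 and 18.4 CPM after DMSO, which did not overlap. Its means of 29.8 ± 7.46 and 17.4 ± 1.42 CPM (SD, n = 2 each) gave a log2FC of 0.78 (SE 0.38, edgeR adjusted p = 0.793), which does not pass the test. CNN1, LMOD1, and SMTN were lower in both MK-0752 libraries than in both DMSO libraries of set 2, with log2FC values of -0.50, -1.03, and -0.20 (edgeR adjusted p from 0.908 to 1), and with 1 library left out LMOD1 ran from -1.47 to -0.43 and CNN1 from -0.77 to -0.19. In all, 5 of the 9 did not overlap between these groups, ACTA2, CNN1, LMOD1, MYOCD, and SMTN, where 34.5% of all tested genes did not. MYOCD had counts in treated SK-LMS-1 libraries only and passed the filter through them, so that its lack of overlap carries no weight.

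Against the other DMSO set, ACTA2, SMTN, and MYOCD still did not overlap, and CNN1 and LMOD1 did. The share of all tested genes without overlap was not counted for this comparison, and for set 2 it was 34.5%. ACTA2 had 14.6 and 22.9 CPM in DMSO set 4, still below both MK-0752 libraries, but CNN1, at 9.20 and 9.97 CPM after MK-0752, lay between the DMSO values of set 4, which were 4.91 and 11.8 CPM. LMOD1 at 6.06 and 4.35 CPM lay between 2.96 and 9.38 CPM in the same way. SMTN, at 123 and 132 CPM after MK-0752, was also below set 4, at 206 and 157 CPM, and with all 4 DMSO libraries as control its log2FC was -0.37 (edgeR adjusted p = 0.632). MYOCD, at 0.196 and 0.978 CPM after MK-0752, was by counts at least 6.03-fold above the floor of the DMSO libraries of set 2, and its test did not pass (edgeR adjusted p = 0.806). Most of the mean behind this bound came from the 1 library at 0.978 CPM. By the estimate above, the MK-0752 libraries held 0.408 and 1.89 molecules of it. Such levels cannot be told from a 0 in the DMSO libraries, so the bound is not set. CALD1, measured with the highest counts, had a log2FC of -0.04 (SE 0.15), ACTG2 of 0.02 (SE 0.85), and TAGLN of -0.14 (SE 0.64).

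After the combination in SK-LMS-1, against DMSO of set 4, edgeR called 0 of the 9 markers tested, where 0.0237% of all tested genes were called, with none at an unadjusted p under 0.05 (4.33% of all tested genes) and 0 called by DESeq2. CALD1 had a log2FC of -0.02 (SE 0.15), SMTN of -0.20 (SE 0.23), and ACTA2 of -0.12 (SE 0.38). ACTG2 was at 9.97 and 9.60 CPM against 4.67 and 8.09 CPM (log2FC 0.62, SE 0.85), and CNN1 at 13.4 and 15.2 CPM against 4.91 and 11.8 CPM (log2FC 0.78, SE 0.68). With 1 library left out these ran from 0.28 to 1.09 for ACTG2 and from 0.28 to 1.56 for CNN1. TAGLN was at 30.6 and 32.2 CPM against 40.4 and 39.7 CPM (log2FC -0.35, SE 0.64). These 3 of 9 did not overlap between the groups, where 32.4% of all tested genes did not.

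In SK-UT-1B the combination gave 0 calls among the 9 markers tested by edgeR, where 0.559% of all tested genes were called, and 0 by DESeq2. ACTG2 alone had an unadjusted p under 0.05, on 4 counts in 1 library, as had 10.5% of all tested genes. DES was at 1.37 and 5.15 CPM after the combination and 9.76 and 5.33 CPM after DMSO, which did not overlap, with a log2FC of -1.21 (SE 1.44, edgeR adjusted p = 0.958) that ran from -2.46 to -0.57 with 1 library left out. SMTN was at 29.9 and 55.8 CPM against 65.7 and 52.1 CPM (log2FC -0.46, SE 0.24, edgeR adjusted p = 0.54). With 1 library left out this SMTN value ran from -0.98 to -0.10, and it was -0.98 (edgeR adjusted p = 0.000303, under the size of 1 asked for a call) without replicate 3 of the combination. CALD1 had a log2FC of -0.03 (SE 0.15), with levels of 46.7 and 42.8 CPM beside 44.7 and 46.7 CPM.

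TAGLN was the other marker whose SK-UT-1B groups did not overlap, at 1.72 and 0.887 CPM after the combination and 0 and 0.822 CPM after DMSO, and 2 of 9 compares with 32.1% of all tested genes. Its log2FC was 1.58 (SE 0.83, edgeR adjusted p = 0.596), and it was called only when a library was left out, with a log2FC of 8.39 (edgeR adjusted p = 2.38e-08) without replicate 2 of DMSO and 1.95 (adjusted p = 0.000501) without replicate 3 of the combination. LMOD1 was called only without replicate 2 of DMSO (log2FC 7.24, adjusted p = 0.0314) and CNN1 only without replicate 3 of the combination (log2FC -6.64, adjusted p = 0.00452). In each case but the second of TAGLN, the library left out was the one with counts in its group, and the other library of that group was at 0. By the estimate above these counts, at most 31 with DMSO and 63 with the combination, stand for at most 3.97 molecules.

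**Figure D4:**
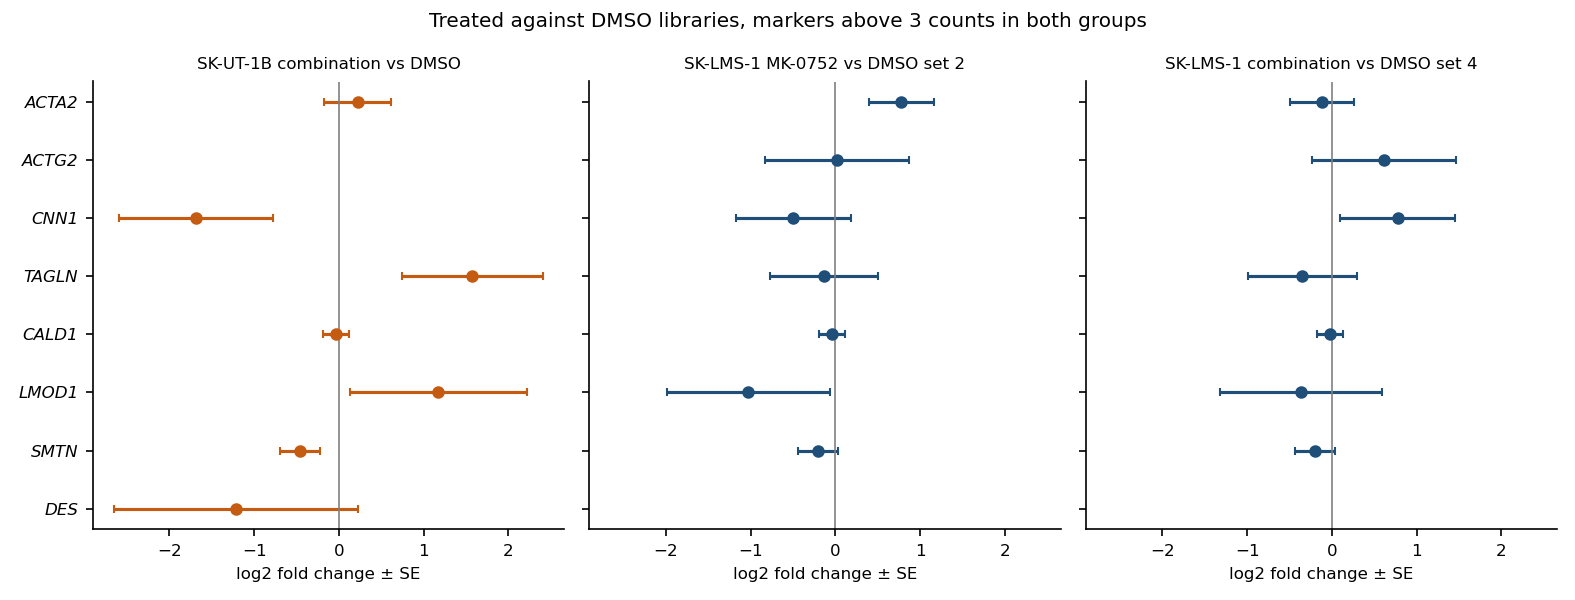
Log2FC of treated over DMSO libraries (horizontal axis, bars for the SE from edgeR) for the markers above 3 counts in both groups, in 1 panel per comparison. CALD1 and SMTN have the shortest bars, and the points farthest from 0 are CNN1 and TAGLN in SK-UT-1B, at -1.69 and 1.58, on counts of 63 or fewer.

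The combination effect was compared between the lines, each at its own doses. For this difference edgeR's interaction term called 0 of the 9 markers, where 0.232% of all tested genes were called, and DESeq2 called 0. CNN1 had an unadjusted p of 0.0423 for it, where 7.67% of all tested genes were under 0.05 (log2FC of -2.46 in SK-UT-1B relative to SK-LMS-1, SE 1.13, edgeR adjusted p = 0.648). With 1 library left out it was called in 1 case, at -7.42 (edgeR adjusted p = 0.00335) without replicate 3 of the SK-UT-1B combination, which held all its counts in that group. TAGLN was called in 3 cases, at 1.89 without replicate 2 of DMSO set 4 in SK-LMS-1, 8.75 without replicate 2 of DMSO in SK-UT-1B, and 2.30 without replicate 3 of the SK-UT-1B combination (edgeR adjusted p of 0.0446, 5.29e-08, and 0.00114). Between the DMSO sets 4 and 2 of SK-LMS-1, edgeR called 0 of the 9 markers and 0 of 21114 genes, of which 1197 (5.67%) and none of the 9 had an unadjusted p under 0.05, and DESeq2 called 0 markers and 30 genes. Between these untreated sets the log2FC was -0.78 for LMOD1 and -0.70 for CNN1, and with 1 library left out these ran from -1.86 to -0.17 and from -1.48 to -0.20. CALD1 was the 1 marker of 9 whose sets did not overlap, where 29.5% of all tested genes did not.

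Further genes of the program were described from lists, which were all matched by symbol. Of 29 tested genes of other contractile and smooth muscle proteins, 15 were called higher in SK-LMS-1 with DMSO and 4 were called lower, beside 17.0% and 14.1% of all tested genes, with a median log2FC of 2.02. MYLK, the kinase that starts smooth muscle contraction, had 496 ± 33.3 CPM (SD, n = 4) in SK-LMS-1 and 2.21 ± 1.58 CPM (SD, n = 2) in SK-UT-1B (log2FC 7.85), and KCNMA1, a potassium channel of smooth muscle, 344 ± 48.5 and 2.09 ± 1.16 CPM (log2FC 7.38). The SK-UT-1B libraries were at 3.32 and 1.09 CPM for MYLK and 2.91 and 1.27 CPM for KCNMA1, so that both sizes depend on the library. SYNPO2 was at least 56.2-fold and TINAGL1 at least 60.1-fold higher, and PDLIM3, a Z-disc protein, was called higher, with 98 to 267 counts against 0 and 4, its fitted log2FC running from 5.80 to 10.65 with 1 library left out. PPP1R14A, an inhibitor of myosin phosphatase, went the other way and was at least 225-fold less abundant in SK-LMS-1, at 0 against 22.2 ± 5.89 CPM. The lower call of NPNT, on 17 counts in 1 SK-LMS-1 DMSO library against 35 and 124, was lost with DMSO set 2 alone (edgeR adjusted p = 0.297) and on the libraries of the comparison alone (0.0544). After the combination 16 were higher and 4 lower, beside 15.6% and 9.88% of all tested genes.

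Regulators that promote the program gave 7 higher and 1 lower of 22 tested, a share near the 31.1% of all tested genes, with a median log2FC of 0.27. TGFBR2, a receptor of TGF-beta, had a log2FC of 5.79, its mediator SMAD3 of 3.87, TEAD1, which binds the MCAT motif, of 3.11, and GATA6 of 4.07. In the SK-UT-1B DMSO libraries SMAD3 had 785 and 454 counts and GATA6 40 and 17, so that the sizes of these 2 depend on the library. The muscle transcription factor MEF2C was also called higher, with 136 to 257 counts in SK-LMS-1 and 0 and 23 in SK-UT-1B, and its log2FC ran from 3.41 to 10.74 with 1 library left out. HAND2, the 1 lower, had 24, 0, 1, and 0 counts in SK-LMS-1 and 158 and 210 in SK-UT-1B, and its fitted log2FC ran from -9.27 to -5.51 with 1 library left out (edgeR adjusted p = 0.00867). Its call was lost with the SK-LMS-1 DMSO libraries of set 2 alone (edgeR adjusted p = 0.15), 1 of 13 alternatives. Of the partners of myocardin, chosen by name after their values were seen, SRF had 71.2 ± 2.40 CPM (SD, n = 4) in SK-LMS-1 and 63.3 ± 13.8 CPM (SD, n = 2) in SK-UT-1B, with overlapping libraries (log2FC 0.17, edgeR adjusted p = 0.465). MRTFA and MRTFB, coactivators of SRF that respond to actin, had log2FC values of -0.09 and -0.53 and were not called, MRTFB by its size. SRF RNA was thus present in both lines, while its cofactor myocardin was at or near 0 as given above.

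Repressors of the program gave 5 higher and 2 lower of 15 tested, beside 31.1% of all tested genes called, with a median log2FC of 0.03. KLF5 (log2FC 4.91), KLF4 (2.47), the SRF competitor ELK3 (2.55), and SMAD7 (4.55) were higher in SK-LMS-1, as was TWIST1, with 433 to 563 counts against 0 and 13 and a log2FC of 5.49 to 12.01 with 1 library left out. HEYL, a Notch target, was lower, with 21 counts in 1 of the 4 SK-LMS-1 libraries and 0 in the other 3, against 473 and 488 in SK-UT-1B, or 0.213 ± 0.426 CPM (SD, n = 4) against 14.7 ± 2.43 CPM (SD, n = 2), so that its direction and call are set (edgeR adjusted p = 0.00089) and its size is not. Among 12 tested paralogs of the markers, listed as nonmuscle, 5 were higher and 2 lower, again beside 31.1% of all tested genes. The higher ones included MYH9 at a log2FC of 2.23, CNN3 of 2.05, VIM of 1.48, and TMOD1, at least 74.0-fold higher. TMOD1 is also expressed in muscle and is not specific to nonmuscle cells. TAGLN2 was the other higher call, and it was under the size of 1 with DMSO set 4 alone and without replicate 2 of that set (log2FC 0.98). MYH10 had a log2FC of -3.66 and MYH14 was at least 2108-fold lower, so that the nonmuscle myosins were divided between the lines. In the 3 treatment comparisons edgeR called 0 genes of these 4 lists. An unadjusted p under 0.05 was given for 8 contractile, 7 regulator, 2 repressor, and 5 paralog genes in SK-UT-1B after the combination, beside 10.5% of all tested genes. For MK-0752 in SK-LMS-1 these were 6, 4, 1, and 1 genes beside 6.41%, and for the combination in SK-LMS-1 they were 1, 1, 1, and 0 beside 4.33%. None of these passed the adjustment, and DESeq2 called 1 contractile gene and 1 repressor after the combination in SK-UT-1B and 0 in the others.

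**Figure D5:**
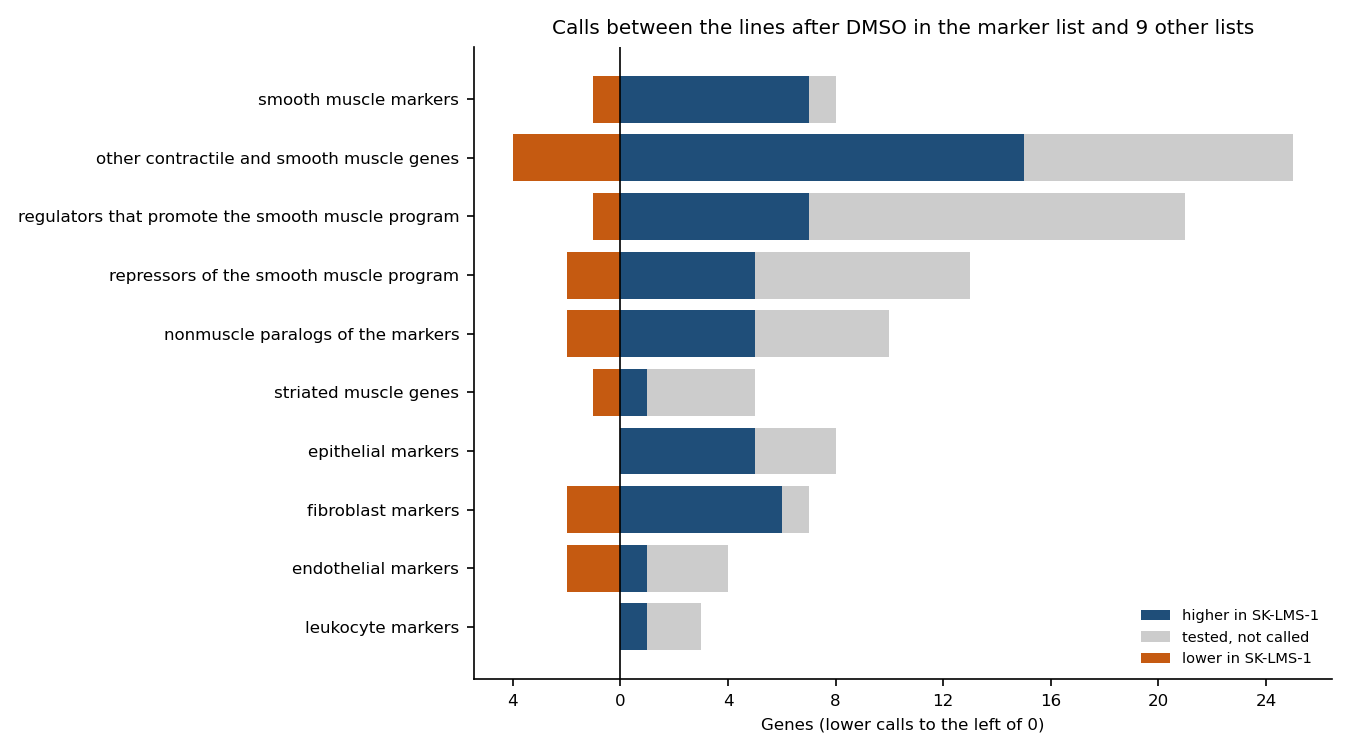
Genes called higher (blue, right of 0) and lower (orange, left of 0) in SK-LMS-1 when the lines are compared with DMSO, and genes tested but not called (grey), in the marker list and 9 other lists, counted along the horizontal axis. The contractile list has 15 higher and 4 lower calls of 29 tested, and the epithelial list 5 higher and 0 lower of 8.

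Markers of other cell types were compared in the same way, and their counts stand beside the 31.1% of all tested genes called, 17.0% higher and 14.1% lower. Of 8 tested epithelial markers, 5 had higher and 0 had lower calls in SK-LMS-1, with KRT8 at least 1120-fold, KRT19 at least 116-fold, KRT7 at least 107-fold, and CLDN4 at least 36.3-fold higher. KRT18 had a log2FC of 7.67, on 33 and 8 counts in the SK-UT-1B DMSO libraries, so that its size depends on the library. The epithelial list, of 14 genes, summed to 179 to 277 CPM in SK-LMS-1 and 0.637 to 3.58 CPM in SK-UT-1B. Of the other list genes, CDH1, CLDN3, GRHL2, OVOL2, and ELF3 had at most 3 counts in every library of both lines, whereas EPCAM reached 37 counts in SK-LMS-1 with 0 in SK-UT-1B, and ESRP1 reached 9 counts in SK-LMS-1 and 91 in SK-UT-1B. Of 9 fibroblast markers, 6 were higher and 2 lower, with THY1 at least 2271-fold and COL1A1 at a log2FC of 5.14 higher, and COL3A1 at -4.91, the list summing to 2438 to 3975 CPM in SK-LMS-1 and 4456 to 4939 CPM in SK-UT-1B. Of 25 striated muscle genes, 6 were tested, 1 was higher (TTN) and 1 lower (ACTC1), and MYOD1 and MYOG had at most 3 counts in every library, the list summing to 29.4 to 62.7 CPM and 23.4 to 56.3 CPM. TNNT1, the slow skeletal troponin T, named after its values were seen, held most of this sum in SK-UT-1B, at 22.5 to 49.7 CPM, and was at 17.7 to 32.9 CPM in SK-LMS-1 (log2FC -0.85 with DMSO, not called by its size). Endothelial markers, with 1 higher and 2 lower of 6 tested (CLDN5 and EGFL7, both lost with the SK-LMS-1 DMSO libraries of 1 set alone, at edgeR adjusted p from 0.06 to 0.112), summed to 3.08 to 9.97 CPM and 21.4 to 27.2 CPM, and leukocyte markers, with 1 higher of 3 tested, to 0.961 to 5.22 CPM and 0 to 0.984 CPM. CLDN5 had 5 and 70 counts in the SK-UT-1B DMSO libraries, and its call was also lost without the library at 70 (log2FC -5.49). The shares called of the striated and leukocyte lists, on 6 and 3 tested genes, were near that over all genes. The part of these genes in the marker differences was not tested. As for the markers, exons of several genes named from the lists, among them MYLK, KCNMA1, MYH14, MYH10, THY1, COL1A1, KRT8, and KRT18, overlap a gene on the other strand. In the treatment comparisons edgeR called 0 genes of these 5 lists. After MK-0752 in SK-LMS-1, COL1A1 (log2FC 0.92, edgeR adjusted p = 0.0021) and COL1A2 (log2FC 0.68, edgeR adjusted p = 0.0203) passed the adjustment but not the size of 1. COL1A1 did so too in SK-UT-1B after the combination, where it was lower (log2FC -0.66, edgeR adjusted p = 0.0293). An unadjusted p under 0.05 was given for 3 of 9 fibroblast, 2 of 6 striated, and 1 of 8 epithelial genes in SK-UT-1B after the combination (10.5% of all tested genes), for 3, 1, and 1 of them after MK-0752 (6.41%), for 1, 1, and 0 after the combination in SK-LMS-1 (4.33%), and for 0 endothelial and leukocyte genes, and DESeq2 called 1 epithelial and 2 fibroblast genes after the combination in SK-UT-1B and 0 in the others.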

How the data were processed

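RNA sequencing of 12 libraries, 2 per group, was used. The authors trimmed reads with Trim Galore 0.3.7, aligned them to hg38 with STAR 2.7.9a, and deposited raw counts per gene without normalization. The annotation and the strand setting of the counts were not given in the sources used here. Names, coordinates, and lengths were taken from GENCODE v44, which held 60507 of the 60649 identifiers. All 157 list symbols matched by symbol.

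Groups were set by line and treatment, and the DMSO libraries of SK-LMS-1 were split by set. The main test was edgeR 4.0.16 in R 4.3.3, which used TMM scaling, filterByExpr, and robust quasi-likelihood fitting across the 6 groups, for 7 comparisons, adjusted over 21114 genes. It was tested on simulated data, with an outcome that is not given here. Alternatives were DESeq2 1.42.0, its size factors, other filters, fewer libraries, a replicate block, and leaving out each library. RPKM divided TMM-scaled CPM by exon length.

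The markers and lists were chosen with earlier results of these data known. All 10 markers were named, and from other lists at most the 6 called genes with the largest absolute log2FC in a comparison whose higher group averaged 100 counts or more. The other list genes named (ACTB, SRF, MRTFA, MRTFB, NPNT, TAGLN2, TNNT1, COL1A2, CLDN5, CLDN3, CDH1, GRHL2, OVOL2, ELF3, EPCAM, ESRP1, MYOD1, and MYOG) were chosen after their values were seen. Likewise, the 5 genes most like the markers were named.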

Additional observations from a re-analysis of the deposited data

How the results depend on the processing

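The count of called markers between the lines was 8 under each alternative after DMSO. After the combination it stayed within 1.5 times of 8, with DES lost under DESeq2 (log2FC -9.02, adjusted p = 0.154) and LMOD1 lost under the replicate block (2.68, adjusted p = 0.0876) and without replicate 1 of the SK-UT-1B combination (2.59). In SK-UT-1B the count for the combination was 0 to 2 with 1 library left out, and for the difference of the combination effect between the lines it was 0 to 2. In SK-LMS-1 the treatment counts were 0 throughout. Values near 0 changed sign. With the replicate block, log2FC was 0.0202 for CALD1 in SK-UT-1B, -0.15 for ACTG2 after MK-0752, and 0.0382 for LMOD1 after the combination in SK-LMS-1, and with all 4 DMSO libraries as control CALD1 after MK-0752 was at 0.0357. With 1 library left out, log2FC ran in SK-UT-1B from -0.30 to 0.58 for ACTA2 and from -0.13 to 0.0296 for CALD1. After MK-0752 it ran from -0.63 to 1.17 for ACTG2, from -0.32 to 0.0394 for TAGLN, and from -0.20 to 0.11 for CALD1. After the combination in SK-LMS-1 it ran from -0.40 to 0.26 for ACTA2, from -0.11 to 0.0934 for CALD1, from -0.96 to 0.72 for LMOD1, and from -0.36 to 0.00878 for SMTN, and between the DMSO sets from -0.23 to 0.12 for TAGLN, -0.26 to 0.40 for ACTA2, and -0.74 to 1.07 for ACTG2. The cause of these changes was not tested. Replicate numbers did not pair the libraries, with correlations of deviations from -0.0068 to 0.0165 in the 4 pairs of groups that share 2 numbers and from -0.0444 to 0.0448 in the 11 that share 1, and the block changed the call of no marker but LMOD1. Of the genes called in the other lists between the lines after DMSO, the block ended the calls of CLDN5 (adjusted p = 0.103), GATA6 (0.0672), and TTN (0.0551).

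Over all genes, counts of calls for SK-UT-1B with the combination, SK-LMS-1 with MK-0752, and SK-LMS-1 with the combination were 118, 53, and 5 with edgeR, 369, 131, and 30 with DESeq2, 420, 175, and 73 without the filter, and 0, 99, and 0 on the libraries of each comparison alone. With the mean of at least 50 counts they were 81, 35, and 1, and with the replicate block 186, 62, and 7. Leaving out 1 library gave 328 to 1056, 116 to 270, and 62 to 247. For sets 4 and 2 with DMSO it was 0 with edgeR, 30 with DESeq2, 76 without the filter, 5 with the block, and 79 to 327 with 1 library left out, and for the difference of the combination effect it was 49, 143, 303, 59, and 282 to 828. The block moved the median log2FC of all genes to 0.11 between the lines after the combination.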

Other observations

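The genes whose levels over the 12 libraries were most like those of the markers, within each line, were VPS37A (Pearson r = 0.912), DGKH (0.907), FAM199X (0.905), TAX1BP1 (0.904), and RUFY2 (0.903). The measure was the correlation, over 12 libraries after each line's mean was subtracted, with the mean log2 CPM of the 7 markers with a mean of at least 100 counts, among 10110 genes. It is a description over libraries that share depth and reads per molecule, and carries no p.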
